A study of Mus musculus with 3 samples.

Results

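The *Egr* and *Nr4a* genes and 3 immediate early genes measured beside them (*Nab2*, *Ier2* and *Ier3*) were followed in bone marrow-derived macrophages (BMDMs) of the mouse after exposure to lipoproteins of the Lyme disease spirochete. The 9 members, *Egr1*, *Egr2*, *Egr3*, *Nr4a1*, *Nr4a2*, *Nr4a3*, *Nab2*, *Ier2* and *Ier3*, were taken by gene symbol from the 32285 genes of the count tables, and each symbol matched 1 gene. On GRCm38 (GENCODE vM21) the *Egr* genes lie on 3 chromosomes, *Egr1* at 18:34859823-34864984, *Egr2* at 10:67535475-67542188 and *Egr3* at 14:70077203-70082614, all on the plus strand. *Nr4a1* (15:101254269-101274795, plus), *Nr4a2* (2:57106830-57124003, minus) and *Nr4a3* (4:48045153-48086447, plus) are likewise apart, as are *Ier2* (8:84661331-84662852, minus) and *Ier3* (17:35821684-35822923, plus). BMDMs came from the marrow of female C3H/HeN mice aged 6 to 8 weeks, pooled and grown in medium conditioned by L929 cells, which supplies M-CSF. Of the 3 groups, Ctrl (labelled untreated) received PBS alone, whereas LP1 and LP4 received purified *B. burgdorferi* lipoproteins (*Bb*LP) at 1 µg/mL and were taken at 1 and 4 hours. Cells were detached with Accutase, and their transcripts were counted one cell at a time in droplets as unique molecular identifiers (UMIs).

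Each condition is 1 library that pools 3 wells, so there is no replicate, no test between conditions was made, and treatment cannot be told apart from any other difference between libraries. Ctrl cells were collected with the LP4 cells at 4 hours, so LP1 has no control of its own time. All intervals below are at the 95% level and cover counting error only. After filters on UMIs, genes and mitochondrial share, 6071 Ctrl, 5065 LP1 and 4670 LP4 cells were kept (15806 of 16281 barcodes). Depth differed between libraries, with medians of 5133, 9343 and 11784 UMIs per kept cell in Ctrl, LP1 and LP4. The median mitochondrial share was 1.97%, 2.84% and 3.17%. Levels are therefore given as UMIs of a gene per 1000000 UMIs summed over kept cells (CPM). The libraries share 3 to 9 kept barcode sequences per pair. Macrophage markers were seen in unequal shares of cells. *Lyz2*, the lysozyme gene of myeloid cells, had a UMI in 99.9% of cells of each library, and *Csf1r*, the M-CSF receptor, in 94.5% to 96.2%. *Cd68* was likewise seen in most cells of each library. Other markers were seen in fewer Ctrl cells, among them *Adgre1* (56.4%), *Mertk* (23.6%) and *C1qa* (16.9%). The macrophage label therefore rests on part of the markers.

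Immediate early genes are transcribed within minutes of a signal from factors that the cell already holds, and their transcripts decay quickly. The Egr proteins are zinc-finger transcription factors induced by growth factor, ERK and SRF signals, and Nab2 is a corepressor that binds them. The Nr4a proteins (Nur77, Nurr1 and Nor1) are orphan nuclear receptors that act without a known natural ligand, and in macrophages they are induced by Toll-like receptor signals and are known as restraints on inflammatory transcription. Ier2 is a nuclear immediate early protein, and Ier3 (IEX-1) is a stress-induced regulator of cell survival and ERK signaling.

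The promoter stretches of the 3 *Nr4a* genes are shown because these genes share a sequence feature that their names do not give. In the 250 bases before the RefSeq start (GRCm38.p6), TGACG, the core of the cAMP response element, was searched on both strands, so its complement CGTCA counts too. It occurs 4 times in each of *Nr4a1*, *Nr4a2* and *Nr4a3*, and at most 2 times in a window of *Egr2*. Of 32851 RefSeq windows of the same length, 17.8% hold at least 1 copy and 0.137% hold at least 4. The *Nr4a* windows are 63.6% to 80% G and C, and how often windows of like composition hold the motif was not tested. Sequences are printed in the direction of transcription, with the matches in capitals. For *Nr4a3* only the 98 bases ahead of the first annotated GENCODE exon are shown, which hold 3 of its 4 matches. The *Nr4a1* start lies inside the longer GENCODE span of the gene.

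*Nr4a1*, chr15:101266596-101266845, plus strand: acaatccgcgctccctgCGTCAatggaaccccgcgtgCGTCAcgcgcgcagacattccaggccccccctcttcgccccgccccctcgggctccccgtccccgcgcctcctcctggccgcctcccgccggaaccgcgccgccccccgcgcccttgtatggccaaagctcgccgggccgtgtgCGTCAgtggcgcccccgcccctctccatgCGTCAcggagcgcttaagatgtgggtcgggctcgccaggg
*Nr4a2*, chr2:57124004-57124253, minus strand: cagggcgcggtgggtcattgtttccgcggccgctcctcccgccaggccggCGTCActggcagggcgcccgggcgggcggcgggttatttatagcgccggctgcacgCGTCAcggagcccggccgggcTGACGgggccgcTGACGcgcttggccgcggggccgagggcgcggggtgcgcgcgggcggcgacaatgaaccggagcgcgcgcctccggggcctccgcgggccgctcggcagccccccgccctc
*Nr4a3*, chr4:48045055-48045152, plus strand: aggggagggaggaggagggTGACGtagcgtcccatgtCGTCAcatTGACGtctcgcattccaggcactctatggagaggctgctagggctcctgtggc

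Other members had windows with other motifs. A CArG box, the site bound by serum response factor, lies 72 bases before a start of *Egr2* and is found in 1.47% of all windows. An NF-kB site lies 92 bases before the start of *Ier3* and is found in 3.90% of windows. They are shown with 10 bases on each side, and the capitals mark the site.

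*Egr2*, chr10:67537787-67537816, plus strand: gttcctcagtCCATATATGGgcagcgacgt
*Ier3*, chr17:35821611-35821640, plus strand: tgcgaagggcGGAGTTCCCCccggcccggc

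The Egr recognition sequence GCGNGGGCG (either strand; 4.70% of windows) occurs once in each of the *Nr4a1* and *Nr4a2* windows. The *Nab2* window held none of the motifs searched, which besides these were the full element TGACGTCA and the Nr4a response element AAAGGTCA. Windows of 6 of the 9 members were searched. *Egr1*, *Egr3* and *Ier2* were not searched, so *Egr2* alone stands for the *Egr* genes here. A match describes letters only, and binding was not measured.

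All 9 members were detected in cells that received no lipoprotein. On the CPM scale each lay within 2-fold of that level at 1 hour, and 6 were below it by more than 2-fold at 4 hours. Against Ctrl, 6 of 9 members were at least 2-fold lower in LP4 (*Egr1*, *Egr2*, *Egr3*, *Nr4a1*, *Nr4a2* and *Ier2*), where 9.95% of the 8103 genes with at least 10 CPM in a library passed the same fold. None was 2-fold higher in LP4, where 10.5% of genes were. The median log2 ratio of the members was -2.81, and that of all 8103 genes was -0.08. Against LP1 the same 6 members were at least 2-fold lower in LP4, beside 7.75% of genes, and none was 2-fold higher, beside 8.59%. Between LP1 and Ctrl none of the 9 was 2-fold higher (0.765% of genes) or lower (0.506%), and the log2 ratios ran from -0.20 to 0.62. The comparisons share libraries, so the drop against Ctrl and that against LP1 are not independent. The members were chosen with earlier results of these data known, so their counts are a description.

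**Figure D1:**
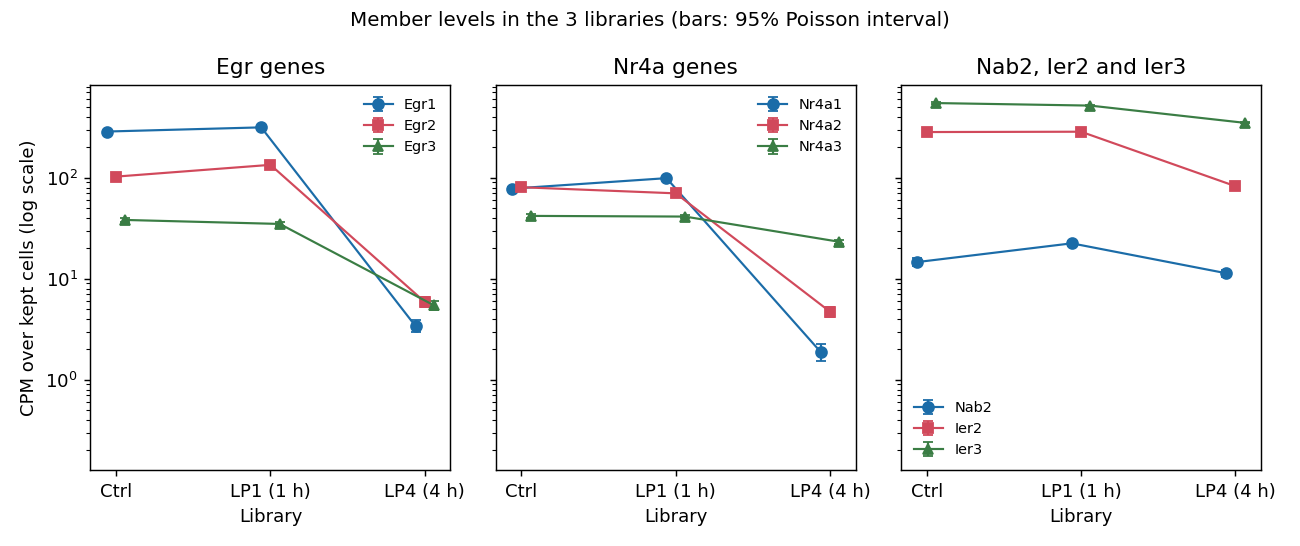
CPM of each member (log axis) over the kept cells of the Ctrl, LP1 and LP4 libraries, with 95% Poisson intervals as bars, 1 library per point. *Egr1*, *Egr2*, *Egr3*, *Nr4a1* and *Nr4a2* lie between 1.87 and 5.88 CPM in LP4, and *Nr4a3*, *Nab2* and *Ier3* lie closer to their Ctrl levels.

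Among the *Egr* genes, *Egr1*, the best known of the family (Zif268), had 287 CPM (interval 281 to 292) without lipoprotein, 315 in LP1 (311 to 320) and 3.39 in LP4 (2.94 to 3.88; 208 UMIs). LP4 was thus 84.6-fold below Ctrl (log2 -6.40, -6.61 to -6.21), and LP1 lay 1.10-fold above Ctrl. *Egr2* (Krox20), whose CArG box is shown above, had 103, 134 and 5.88 CPM in Ctrl, LP1 and LP4. It was 1.31-fold higher in LP1 than Ctrl (log2 0.39, 0.33 to 0.44) and 17.5-fold lower in LP4. *Egr3* had 38.2, 34.9 and 5.44 CPM in the same order, 7.02-fold lower in LP4 than Ctrl and 1.10-fold lower in LP1 (log2 -0.13, -0.23 to -0.03).

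Of the *Nr4a* genes, with the repeated TGACG matches shown above, *Nr4a1* and *Nr4a2* were low at 4 hours and *Nr4a3* was not. *Nr4a1* (Nur77) had 78.0, 99.0 and 1.87 CPM (115 UMIs in LP4), 1.27-fold higher in LP1 and 41.7-fold lower in LP4 than Ctrl. *Nr4a2* (Nurr1) had 80.5, 70.1 and 4.71 CPM, 1.15-fold lower in LP1 (log2 -0.20, -0.27 to -0.13) and 17.1-fold lower in LP4. *Nr4a3* (Nor1) had 41.9, 41.3 and 23.2 CPM. Its LP1 and Ctrl levels did not differ beyond counting error (log2 -0.02, -0.12 to 0.07), and LP4 was 1.80-fold lower than Ctrl (log2 -0.85, -0.96 to -0.75). The 3 *Nr4a* genes, each with 4 matches in its window, thus differed in their ratio of LP4 over Ctrl, and the intervals of the 3 ratios do not overlap.

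*Nab2* had 14.6, 22.4 and 11.3 CPM. Of the 9 members it had the highest ratio of LP1 over Ctrl (1.53-fold; log2 0.62, 0.47 to 0.77), and LP4 was 1.29-fold below Ctrl. *Nab2* (10:127660918-127668568, minus strand, GENCODE vM21 on GRCm38) overlaps *Stat6*, *Nemp1* and an antisense gene on the other strand, and whether counting used the strand is not given in the sources used here. *Ier2* had 283, 286 and 82.5 CPM, and its 3.44-fold lower level in LP4 was the smallest of the 6 past 2-fold. *Ier3* had 549, 518 and 350 CPM, 1.57-fold lower in LP4 than Ctrl.

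CPM divides by all RNA of a library, and the libraries differ in UMIs per cell. Without that division, *Ier3* had a mean of 3.23, 5.37 and 4.60 UMIs per kept cell in Ctrl, LP1 and LP4. *Nr4a3* had 0.246, 0.427 and 0.305, and *Nab2* 0.086, 0.232 and 0.149. For these 3 genes the direction between LP4 and Ctrl therefore depends on the scale. *Egr1* had 1.69, 3.27 and 0.0445 UMIs per cell, and *Nr4a1* 0.459, 1.03 and 0.0246. In LP1 all 9 members had more UMIs per cell than in Ctrl, 3 of them at least 2-fold (*Egr2*, *Nr4a1* and *Nab2*), and *Egr3*, *Nr4a2*, *Nr4a3* and *Ier3* thereby changed direction. The median gene of the 8103 was also higher on this scale, by 0.80 in LP1 and 1.08 in LP4 (log2). The median member was higher by 0.83 in LP1, near that of all genes. How many of all genes passed 2-fold on this scale was not counted. All 6 members past 2-fold on the CPM scale were lower in LP4 than Ctrl on both scales. *Ier2*, with 1.67 UMIs per cell in Ctrl and 1.08 in LP4, was then within 2-fold. Deeper sequencing of a library and more RNA per cell cannot be told apart here.

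Read per cell, most Ctrl and LP1 cells carried an *Egr* or *Nr4a* transcript and few LP4 cells did. Each cell was thinned to 2000 UMIs, and 122 shallower cells of Ctrl, 13 of LP1 and 45 of LP4 were set aside. A UMI of at least 1 of the 6 genes was then found in 60.1% of Ctrl (exact binomial interval 58.8 to 61.3), 65.9% of LP1 (64.6 to 67.2) and 8.48% of LP4 (7.69 to 9.32). At their own depth the shares were 81.6%, 95.1% and 28.8%. *Egr1* was seen in 34.6%, 41.2% and 0.80% of thinned cells. *Nr4a3* was seen in 8.12%, 7.46% and 4.76%, and *Ier3* in 52.0%, 50.1% and 39.0%. The median thinned cell held UMIs of 2 of the 9 members in Ctrl and LP1 and of 1 in LP4. At full depth, which differs between libraries, all 6 *Egr* and *Nr4a* genes were found together in 78 Ctrl cells, 173 LP1 cells and 1 LP4 cell. Among thinned cells they were found together in 3 of 5949 in Ctrl, 6 of 5052 in LP1 and 0 of 4625 in LP4.

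No cell type known to lack these genes was captured to set the level of free RNA. The neutrophil-like cells are the nearest reference. In thinned Ctrl cells of that kind (21 cells), *Egr1* was seen in 14.3% (3.05 to 36.3) and *Egr2*, *Egr3* and the 3 *Nr4a* genes in 0 of 21, with an exact upper limit of 16.1%. Macrophage-like Ctrl cells had a median depth of 5074 UMIs beside 3947 in these. Their share was 35.4% for *Egr1*, inside the interval of the reference, and 18.2% for *Egr2*, above its limit. It was 7.34% for *Egr3*, 15.96% for *Nr4a1*, 14.8% for *Nr4a2* and 8.36% for *Nr4a3*, all under that limit, so 21 cells cannot set these 4 genes or *Egr1* apart from the reference. In LP4 the order was the other way for *Egr1*, with 4 of 29 neutrophil-like cells (13.8%, 3.89 to 31.7; median depth 9303 UMIs) against 0.672% of macrophage-like cells (11582 UMIs), and for *Nr4a1*, with 3 of 29 (10.3%) against 0.255%. The LP4 shares of these 2 genes in macrophage-like cells thus lay below the reference. The neutrophil-like cells therefore cannot set a level of free RNA for these 2 genes in LP4. Whether the UMIs in macrophage-like cells come from free RNA was not tested, and they are not read as expression. *Nr4a3* was seen in 1 of 29 LP4 neutrophil-like cells (3.45%, 0.087 to 17.8) and in 4.85% of macrophage-like cells, which this number of cells cannot tell apart. *Egr1* in LP4 neutrophil-like cells stood at 43.2 CPM from 11 UMIs. The 11 neutrophil markers summed to 582, 480 and 785 CPM in Ctrl, LP1 and LP4. This sum does not measure neutrophils alone. *Mmp8*, 1 of the 11, had a UMI in 46.7%, 59.8% and 65.7% of all kept cells. Without the neutrophil-like cluster *Egr1*, *Egr2*, *Egr3*, *Nr4a1*, *Nr4a2* and *Ier2* were again at least 2-fold lower in LP4 than Ctrl, with log2 ratios from -6.48 (*Egr1*) to -1.78 (*Ier2*).

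The transcripts were unevenly spread. The 10% of Ctrl cells with the most *Egr3* UMIs held 85.0% of them, and the matching share was 75.4% for *Nr4a3*, 45.2% for *Egr1* and 35.3% for *Ier2*; genes seen in few cells reach high shares by low counts alone. The variance over the mean of thinned counts, which is 1 for random sampling, was 2.09 for *Egr1*, 1.51 for *Egr3*, 1.57 for *Nr4a3*, 2.68 for *Ier3*, 1.06 for *Nr4a1* and 1.03 for *Nab2* in Ctrl. In LP4 it was 1.59 for *Nr4a3* and 2.94 for *Ier3*, and 1 LP4 cell held 203 UMIs of *Ier3*.

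To see which cells held them, cells were clustered on genes that left out the members and all listed response genes. Clusters A to E were macrophage-like, F was cycling-like and G dendritic-like. All were compared. G was named from 4 leading genes of class II antigen presentation (*H2-Eb1*, *H2-Aa*, *H2-Ab1* and *Cd74*). In G 6 macrophage markers were also widely seen, as many as in A and B. The dendritic-like label therefore rests on part of the markers. H was the neutrophil-like cluster of 85 cells. Cluster C, led by *Slc9a9*, *Cd86*, *Ccl7* and *Apoe*, had the highest CPM of 8 of the 9 members in Ctrl (the exception was *Nab2*). Cluster D, led by *Mgll*, *Eef1a2*, *Ctsk* and *Mmp9*, had the lowest of 8 (the exception was *Egr2*, lowest in F). *Egr3* had 130 CPM in C (122 to 140) and 3.32 in D (2.03 to 5.13) in Ctrl, a 39.3-fold range. The range between these clusters was 14.5-fold for *Nr4a3* (128 against 8.81 CPM), 10.0-fold for *Ier3* (1278 against 127), 7.93-fold for *Nr4a2*, 4.69-fold for *Egr1* and 4.28-fold for *Nr4a1*. In LP1 C was again highest for *Egr1*, *Egr2*, *Egr3*, *Nr4a1* and *Ier3*, with 136 CPM of *Egr3* in C and 4.56 in D, while *Nr4a2* and *Nr4a3* were highest in G and *Ier2* in E. *Nab2* was nearly even, with 13.5 to 20.9 CPM over the clusters of Ctrl.

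**Figure D2:**
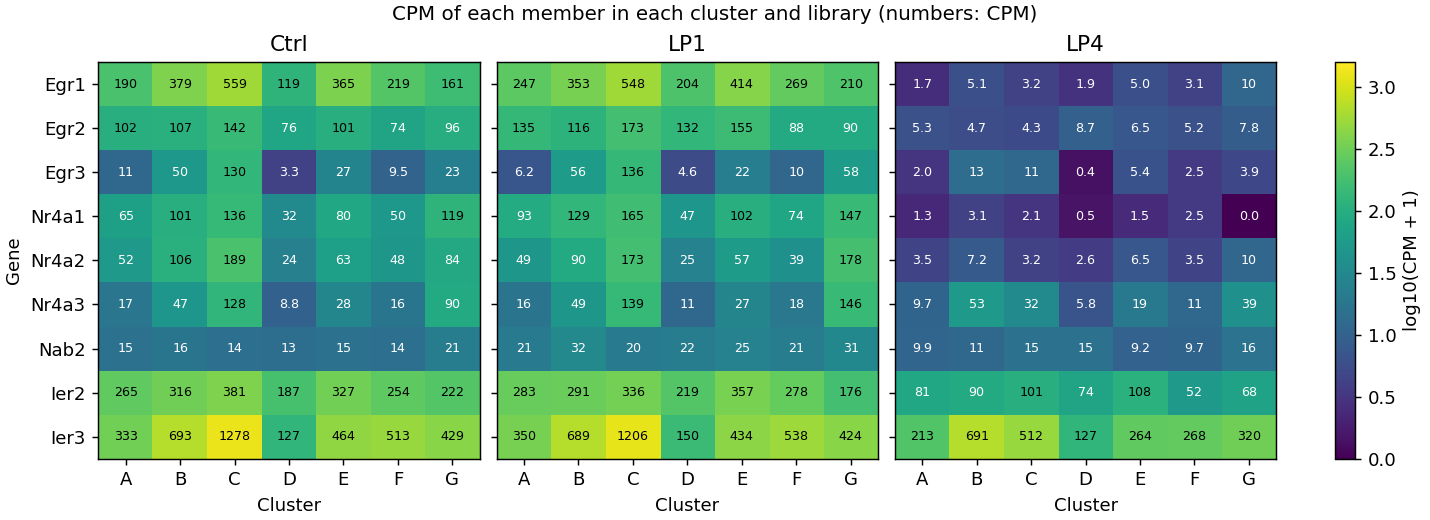
CPM of each member (rows) in clusters A to G (columns) of the Ctrl, LP1 and LP4 libraries, written in each field and colored as log10(CPM + 1). Cluster C is brightest for most members in Ctrl and LP1, and in LP4 *Nr4a3* and *Ier3* are highest in cluster B.

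*Egr1*, *Egr2*, *Egr3*, *Nr4a1*, *Nr4a2*, *Ier2* and *Ier3* were below their Ctrl CPM after 4 hours in each of the 7 clusters. For *Ier3* the interval lay below 0 in 5 of the 7, and in cluster D its log2 ratio was 0.00 (-0.13 to 0.13). *Egr1* ran from -7.44 in C to -3.95 in G on the log2 scale. C holds 1622 Ctrl and 1180 LP1 cells and 98 LP4 cells, and only 3 UMIs of *Egr1* were counted in those 98, so its LP4 values are imprecise.

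*Nr4a3* differed between clusters. In cluster B, led by *F13a1*, *Cxcl5* and *Ms4a4a*, it had 47.0 CPM (41.1 to 53.4) without lipoprotein, 48.5 (42.9 to 54.6) at 1 hour and 53.4 (50.1 to 56.9) at 4 hours, with no lower level in LP4 (log2 0.19, -0.02 to 0.40). At a resolution of 0.8 *Nr4a3* was lower in LP4 in 8 of 9 clusters, so an exception remained. At 0.3 it was lower in 5 of 5, so the exception depends on how coarsely cells are clustered. In the other 6 clusters it was lower in LP4, down to a log2 ratio of -1.99 in C (-2.57 to -1.47). B holds 12.3% of the Ctrl library, 9.99% of LP1 and 35.5% of LP4, and 961 of the 1425 LP4 UMIs of *Nr4a3*. *Ier3* was likewise level in B, with 693, 689 and 691 CPM in the 3 libraries. Differences between clusters in these ratios were not tested, since each rests on 1 library per condition. In Ctrl most macrophage-like cells were in A and C and in LP4 in A and B. Cluster C holds 26.7% of Ctrl, 23.3% of LP1 and 2.10% of LP4. At a resolution of 0.3, 1 cluster led by genes of both (*Apoe*, *Cd86*, *F13a1* and *Ms4a4a* among them) holds 30.9%, 27.0% and 29.8%. Whether B holds like cells in the 3 libraries was not tested, so the level CPM of *Nr4a3* and *Ier3* in B may not compare like cells.

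Cells with few UMIs had higher CPM of several members, which is a share of their UMIs and not an amount per cell. Between the 1518 Ctrl cells with the fewest UMIs (median 3106) and the 1518 with the most (9274), *Nr4a3* went from 91.6 to 27.8 and *Ier3* from 958 to 426, while *Nab2* had 15.0 and 14.9 CPM. The matching sets of 1168 LP4 cells had 63.5 and 13.4 CPM of *Nr4a3*. By mitochondrial share, *Egr1* had 339 CPM in the 1518 Ctrl cells with the lowest share and 228 in the 1518 with the highest. Over all 8 such sets of a library, by UMIs or by mitochondrial share, *Egr1* was at most 7.34 CPM in LP4 and at least 228 in Ctrl. The part of cell size in the cluster differences was not tested.

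Co-expression was read as Pearson's r over the cells of 1 library, on log counts scaled per cell. Cells of a library share depth and free RNA, so r is a description. Of the 36 member pairs, 25 had r of at least 0.1 in Ctrl, 22 in LP1 and 10 in LP4. As background, between 0% and 6.21% of the other genes reached 0.1 with a given member in Ctrl or LP1. In LP4 this share ran from 0.011% (*Nab2*) to 4.19% (*Ier3*). *Egr3* and *Nr4a3* were the most correlated pair in each library, with r = 0.331 in Ctrl (6071 cells), 0.442 in LP1 (5065 cells) and 0.325 in LP4 (4670 cells). Within clusters r for this pair was 0.245, 0.331 and 0.297, and after thinning 0.191, 0.232 and 0.131. The lead of this pair depends on the measure. After thinning *Egr3* and *Ier3* led in Ctrl (0.234) and LP1 (0.242), and *Nr4a3* and *Ier3* in LP4 (0.177), and by Spearman the same pairs led in Ctrl and LP4. *Ier3* paired with *Egr3* (0.314 in Ctrl) and with *Nr4a3* (0.293 in Ctrl, 0.314 in LP4). *Egr2* was nearly unrelated to *Nr4a1* (0.054 in Ctrl and 0.052 in LP1), although they were detected in 37.7% and 33.2% of Ctrl cells. *Nab2* stayed within -0.023 and 0.030 of 0 with each other member in Ctrl and LP1.

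**Figure D3:**
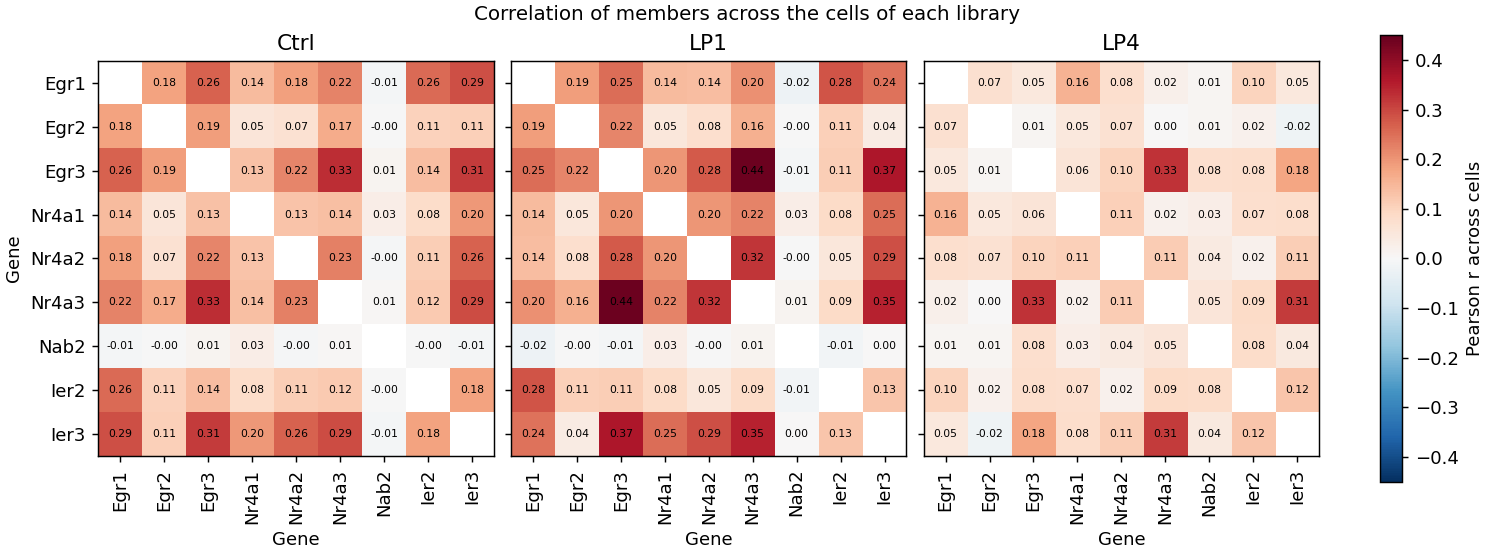
Pearson's r across cells for each pair of members (rows and columns) in the Ctrl (6071 cells), LP1 (5065) and LP4 (4670) libraries, written in each field and colored from blue (negative) to red (positive). The *Egr3* and *Nr4a3* field has the highest r in each panel and the *Nab2* row is near 0 in Ctrl and LP1.

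The medians by family were alike in Ctrl, at 0.189 between *Egr* genes, 0.136 between *Nr4a* genes and 0.165 across the families. In thinned Ctrl cells with an *Egr1* UMI (2061 cells), 12.6% also had *Nr4a3* (11.2 to 14.1), against 5.74% (5.03 to 6.51) of those without. *Egr3* was seen in 11.1% of thinned Ctrl cells with an *Ier3* UMI and in 2.24% of cells without. The fall to 10 pairs in LP4 comes with counts of 115 to 361 UMIs for 5 of the members, and at such counts a weak r is no finding.

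The genes most like the *Egr* genes over Ctrl cells, among 7722 genes seen in at least 5% of cells, were *Ccl7* (r = 0.381 with the summed *Egr* counts), *Ccl4* (0.376), *Ccl3* (0.350), *Cd86* (0.342) and *Rasgef1b* (0.342). *Ccl7*, *Ccl4* and *Ccl3* encode chemokines and *Cd86* a costimulatory receptor. For the summed *Nr4a* counts they were *Cd86* (0.403), *Ccl7* (0.368), *Ccl3* (0.350), *Slc9a9* (0.350) and *Ccl4* (0.345). In LP1 *Ccl4* (0.342), *Ccl7*, *Rcan1*, *Rasgef1b* and *Ccl3* (0.319) led for *Egr*, and *Cd86* (0.434), *Ccl4*, *Ccl3*, *Zfp36l1* and *Ccl7* (0.382) for *Nr4a*. *Slc9a9*, *Cd86* and *Ccl7* are also leading genes of cluster C. Over the 21 profiles of 7 clusters in 3 libraries, which share libraries and depth, *Id3*, an inhibitor of helix-loop-helix factors, was most like the mean of the members (r = 0.976), followed by *Cd83*, *Vav3*, *Nlrp3* and *Fam107b* (0.969).

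In LP4, 598 cells (12.8%) had an *Egr* UMI at full depth. A single UMI can come from free RNA, so these are not read as cells that express the genes. *Nos2*, the inducible nitric oxide synthase, had 115 CPM in them and 203 in the other LP4 cells (log2 -0.82, -0.91 to -0.73), and *Cxcl10*, an interferon-induced chemokine, 663 and 965. *Cxcl3*, *Ifit1*, *Gbp5* and *Isg15* were lower by 0.14 to 0.26 on the log2 scale, and the interval for *Il6* included 0. *Cxcl2*, a neutrophil-attracting chemokine, was higher (2185 against 1374 CPM), as was *Nr4a3* (56.0 against 17.8). These cells were somewhat deeper (median 12757 against 11643 UMIs), and 40.6% of them were in cluster B, against 34.7% of the others. The 967 LP4 cells (20.7%) with an *Nr4a* UMI had 616 CPM of *Ier3* against 281 in the rest, 2364 against 1262 of *Cxcl2* and 16.5 against 2.56 of *Egr3*, with 53.2% of them in cluster B. The late response genes went both ways in them. *Il6* (log2 0.53) and *Cxcl3* (0.26) were higher, *Cxcl10* (-0.35), *Nos2* (-0.21) and *Ifit1* (-0.11) were lower, and the intervals of *Gbp5* and *Isg15* included 0. These cells were chosen by the members, and cells of 1 library are not replicates, so the values are a description.

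Other genes of the same response were read from lists. Their counts stand beside 9.95% of all genes lower and 10.5% higher in LP4 than Ctrl. All lists were chosen with earlier results of these data known, so these counts are a description and no independent result. Measured genes are those with at least 10 CPM in a library, and listed genes under that limit were not counted. Of 10 measured AP-1 genes, whose products pair as Fos and Jun factors, 4 were at least 2-fold lower in LP4 than Ctrl and 1 was higher. *Fosb* had 124.7, 77.9 and 1.47 CPM in the 3 libraries (LP4 over Ctrl log2 -6.41) and *Fos* 712, 463 and 24.6 (-4.86), so that these 2 were also 1.60-fold and 1.54-fold lower in LP1 than Ctrl. *Jun* had 339 CPM in Ctrl and 38.1 in LP4 (-3.15) and *Maff* 36.1 and 17.1 (-1.08). *Batf* was higher (2.33 CPM in Ctrl and 21.4 in LP4) and reached 10 CPM only in LP4. Of 23 other immediate early genes 10 were lower and 3 higher. *Klf2* (-3.71), *Id3* (-3.27), *Rgs2* (-3.03) and *Trib1* (-2.75) had the lowest ratios, and in LP1 *Id3* was above Ctrl (234 against 140 CPM).

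Of 8 genes of ERK feedback, phosphatases and Sprouty-related inhibitors that turn the pathway down, 4 were lower in LP4 and 2 higher. In Ctrl, LP1 and LP4 *Dusp5* had 236, 227 and 24.0 CPM, *Spred2* 52.8, 47.8 and 10.6, *Dusp4* 181, 196 and 39.6, and *Dusp1* 391, 598 and 165. The 2 higher were *Spred1*, with 187, 241 and 417 CPM, and *Dusp6*, with 5.04, 8.52 and 10.6. *Dusp6* reached 10 CPM only in LP4. *Dusp1* is on this list, although the paper describes its product as preferring p38 and JNK. Among 6 relatives and partners of the members, the receptor partners *Rxra* and *Rxrb* were lower, and *Nab1*, the other corepressor of Egr proteins, had 53.7 CPM in Ctrl and 67.2 in LP4. Of 18 genes of signal input, 4 were higher in LP4, among them *Myd88*, the adaptor of Toll-like receptors (15.4 to 58.0 CPM), and the kinases *Map3k8* and *Map2k1*. Another 2 of the 18, a share near that of all genes, were lower, among them *Mef2c* (211 to 49.0 CPM), a transcription factor.

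**Figure D4:**
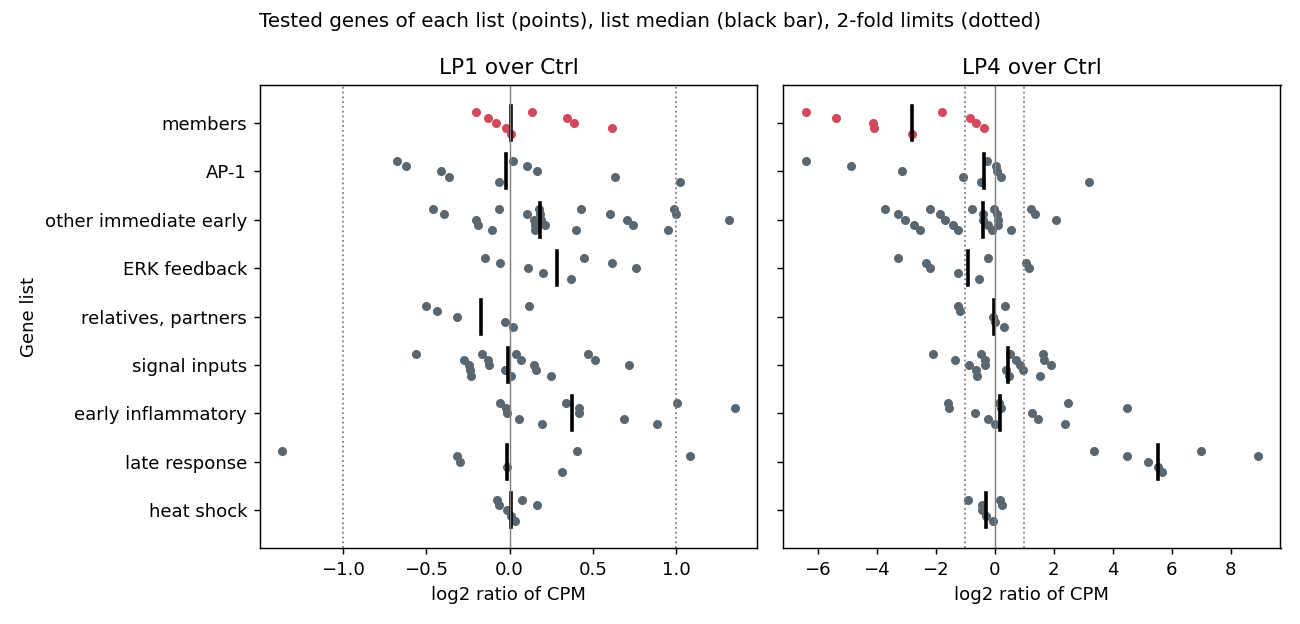
log2 ratio of CPM for each gene with at least 10 CPM in a library (points), in the members and 8 other lists. LP1 over Ctrl is on the left and LP4 over Ctrl on the right (axes differ). Black bars are list medians and dotted lines mark 2-fold. In LP4 the member median is -2.81 and that of the late response list is 5.52, and in LP1 the members lie within 2-fold.

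Of 12 early inflammatory genes 5 were higher in LP4 and 2 lower. *Ccl4* went from 114 CPM in Ctrl to 290 in LP1 and 2524 in LP4, whereas *Tnf* had 840, 1119 and 280. All 7 late response genes were higher in LP4, with *Nos2* at 0.392 CPM in Ctrl and 190 in LP4 and a list median of 5.52 on the log2 scale. This list, like the others, was chosen with earlier results of these data known. *Nos2*, *Il6* and *Cxcl3* reached 10 CPM only in LP4. The count and median of this list are therefore a description and no independent result. None of 7 heat shock genes, which respond to stress of handling and heat, was past 2-fold in LP1 or LP4 (median log2 0.01 and -0.29). *Hspa1a* and *Hspa1b* of the same list lay below the CPM limit for a call and are not among the 7. *Hspa1b* had 1.77, 1.39 and 4.45 CPM in Ctrl, LP1 and LP4. It was 2.52-fold higher in LP4 than Ctrl (log2 1.33, 0.93 to 1.75). *Hspa1a* was level between LP4 and Ctrl (log2 0.11, -0.17 to 0.38). Whether stress of handling differed between libraries was not tested. In LP1 over Ctrl the AP-1 list had 1 gene higher and 0 lower, the other immediate early genes 2 and 0, and the ERK feedback genes 0 and 0, beside the 0 and 0 of the members.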

How the data were processed

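The authors aligned reads to mm10 with Cell Ranger (7.1.0 per the labels) and deposited raw UMI counts of each gene in each called barcode; whether intronic reads or strand were used is not given in the sources used here. From these, barcodes with over 500 UMIs, over 500 genes and under 5% mitochondrial UMIs were kept. Counts were summed per library and scaled to CPM, with exact Poisson, conditional binomial (ratios) and binomial (shares) intervals at 95%. A gene at 0 was set to a floor of 3 counts. A 2-fold ratio was the call, among genes with at least 10 CPM in a library. Kept cells gave 35688939 (Ctrl), 52475723 (LP1) and 61402275 (LP4) UMIs. Cells were clustered on 2000 variable genes under 1.5-fold between libraries, centred by library, with 30 components, 20 neighbours and Leiden at a resolution of 0.5 (seed 20). Clusters were named from marker lists and compared with at least 50 cells in each library. A doublet caller marked at most 0.0214% of cells and so had not worked; no doublets were removed.

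The members and all lists were chosen with earlier results of these data known. Named were the members, up to 4 genes per other list of at least 50 CPM with the largest LP4 over Ctrl ratio, and the 5 genes most like each family. *Batf*, *Spred1*, *Dusp6*, *Rxra*, *Rxrb*, *Hspa1a*, *Hspa1b* and the late response genes in the split of LP4 cells were named after their values were seen. Scripts were tested on simulated data. The tools were Python 3.11.15, scanpy 1.11.5, leidenalg 0.10.2, scipy 1.17.1, and edgeR 4.0.16 (R 4.3.3), which gave TMM factors only. Alternatives were other scalings, cell filters, folds, thinning depths, correlation measures and resolutions.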

Additional observations from a re-analysis of the deposited data

Results flagged for a closer look

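Between LP1 and Ctrl, 5 members had clusters that moved in opposite directions on the CPM scale, each beyond its counting interval. The difference between clusters was not tested, since each cluster has 1 library per condition. How many of all genes meet this rule was not counted, so the count is not read as a trait of the members. *Egr1* was lower in cluster B (log2 -0.10, 379 to 353 CPM) and higher in D (0.77, 119 to 204 CPM). *Egr3* was lower in A (-0.81, 10.8 to 6.15 CPM) and higher in the dendritic-like cluster G (1.32, 23.0 to 57.5 CPM). *Nr4a2* was lower in B (-0.23) and higher in G (1.09, 83.8 to 178 CPM). *Ier2* was lower in C (-0.18) and higher in D (0.23), and *Ier3* lower in C (-0.084) and higher in D (0.23). G has 83 Ctrl and 58 LP1 cells. The upper interval ends of *Egr1* in B (-0.01) and *Ier3* in C (-0.04) were small. TMM moved the median of all genes in LP1 over Ctrl by more than that (0.07). Clusters were not compared by mean UMIs per cell, a scale on which every member was higher in LP1 over all kept cells. The lower levels above may therefore depend on the scale.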

How the results depend on the processing

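With LP4 against Ctrl, the count of members at least 2-fold lower was 5 to 8 of 9 over all 13 alternatives, and against LP1 it was 5 to 8 as well. No member was 2-fold higher in LP4 under any of them. In LP1 over Ctrl, 1 member (*Nab2*) was higher at a 1.5-fold limit and 3 by mean UMIs per kept cell. The share of all genes passing at these settings was not counted. The mean UMIs per kept cell was an alternative chosen after seeing the data, as was leaving out the neutrophil-like cluster. By mean UMIs per cell, *Nr4a3* (log2 0.31), *Nab2* (0.79) and *Ier3* (0.51) were above Ctrl in LP4, and *Egr3* (0.69), *Nr4a2* (0.62), *Nr4a3* (0.80) and *Ier3* (0.73) above Ctrl in LP1. TMM and median of ratios moved the median of all genes in LP4 over Ctrl by 0.17 and 0.21 on the log2 scale and left all 9 members below Ctrl. In LP1, *Nr4a3* changed sign (-0.02 to at most 0.05) under TMM, median of ratios and means of cell shares, and *Ier2* (0.01 to -0.02) under the last. Of 297 values for single members, 84 left their counting interval and none past 2-fold changed sign.

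The share of cells with an *Egr* or *Nr4a* UMI (Ctrl, LP1, LP4) was 42.3%, 47.5% and 4.71% when thinned to 1000 UMIs, 73.4%, 83.0% and 14.0% at 4000, and 81.6%, 95.1% and 28.8% without thinning, by construction. In macrophage-like clusters it was 61.8% (Ctrl) and 67.3% (LP1). Pairs with r of at least 0.1 fell to 16, 13 and 2 when thinned, to 15 (Ctrl) and 6 (LP4) within clusters, and to 3 (LP4) by Spearman. The cause of the last 2 changes was not tested. The 7 members lower in LP4 in each cluster were 9 at a resolution of 0.3, *Nr4a3* then included, and 6 at 0.8. No paired analysis was possible because each condition has 1 library.

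With 1 library per condition, the spread between cultures was not measured, and treatment, time of collection and library cannot be told apart. LP4 values of *Egr1*, *Nr4a1* and *Nr4a2* rest on 115 to 289 UMIs, and those of cluster C on 98 cells.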
